A study of Mus musculus with 8 samples.

Results

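The core genes of the circadian clock were followed in the soleus muscle of mice that carry the K562E mutation of dynamin 2. These are Arntl (also called Bmal1), Clock, Per1, Per2, Per3, Cry1, Cry2, Nr1d1, Nr1d2 and Dbp, chosen by name as the textbook core of the circadian clock, and they make up 10 of the 22880 gene IDs in the count tables. All 10 passed the filter on low counts. Cry1 fell in Dnm2 +/K562E muscle to 10.2 ± 1.45 CPM (read counts relative to each library's effective total) from 17.4 ± 3.89 in controls (SD, n = 4 each), with no overlap between the genotypes. Arntl fell and Cry2 rose as means, but in both of these genes 1 control mouse lay among the mutants or beyond them. That mouse, control 1, lay outside the range of the other 3 controls in all 10 genes, on the side of the mutant mean, and most of the genotype comparisons depend on whether it is counted.

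In the mammalian clock, a heterodimer of the proteins made from Arntl and Clock binds E-box sequences and drives transcription of the Period and Cryptochrome genes, whose products return to the nucleus and repress that heterodimer. A further loop runs through Nr1d1 and Nr1d2, nuclear receptors also known as REV-ERBα and REV-ERBβ, which compete with ROR receptors and repress Arntl. Dbp, a PAR-bZIP factor that activates genes through D-boxes, is an output of the E-box arm. In peripheral tissues such as skeletal muscle, the transcript of Arntl peaks roughly opposite in the daily cycle to that of Dbp, so that single dissections catch these genes at different heights according to the hour.

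The animals were 2-month-old males on a C57BL/6 background (C57bl/6 J in the study's methods). The 4 controls were Dnm2 +/+ and the 4 mutants Dnm2 +/K562E. Dynamin 2 is the ubiquitous GTPase that cuts vesicles from membranes. The mutation was knocked into the endogenous Dnm2 locus, with a LoxP site left in an intron, so every cell of the animal carries it from the start and no muscle-specific effect can be separated. The soleus is a slow, postural hindlimb muscle, and 1 RNA-seq library was made from each mouse. In such bulk tissue, fewer cells of a type and less RNA per cell cannot be told apart. The hour at which each muscle was taken is not given in the sources used here, so genotype and time of day cannot be told apart in these transcript levels.

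The libraries held 33407430 to 48832814 counts on genes, and the smallest count of any clock gene in any mouse was 175, for Per2. The transcript of Dnm2 itself was at 66.3 ± 4.74 CPM in controls and 73.4 ± 2.43 CPM in mutants (SD, n = 4 each), and counts per gene cannot show the mutated base. Levels are given as normalised read counts after TMM scaling, in CPM. The reported tests are edgeR quasi-likelihood tests across all 14001 genes that passed the filter, with Benjamini-Hochberg adjustment. A gene was called when its adjusted p was below 0.05 and its fold change at least 0.58 on the log2 scale in either direction, which are the study's own thresholds. Markers of slow fibres summed to 16430 to 19310 CPM in controls and 10730 to 13350 CPM in mutants. Those of fibroblasts summed to 1156 to 1817 and 2545 to 3249 CPM, those of macrophages to 61.8 to 114.2 and 131.3 to 220.1 CPM, tendon markers summed to 70.1 to 110.9 and 199.9 to 251.1 CPM, fast fibre markers to 20210 to 22930 and 11550 to 13530 CPM, and no marker of the 8 cell types listed was at 0 in any mouse. All 4 fibroblast, all 5 macrophage and all 3 tendon markers were called higher, beside 12.9% of all tested genes. Called lower, beside 7.85% of all tested genes, were 2 of 6 slow fibre, 4 of 5 fast fibre and 1 of 4 endothelial markers. On adjusted p alone all 4 endothelial markers were lower, beside 3036 of all 14001 genes. They summed to 810.2 to 849.7 CPM in controls and 576.2 to 661.4 CPM in mutants. None of the Schwann cell and adipocyte markers was called. The part of these changes in the clock results was not tested.

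Control 1 has to be described before the comparisons. Its clock genes were set apart from those of the other controls, in that the gap to the nearest control exceeded Dixon's 95% critical share of the group's whole range for 4 samples, in 6 of the 10 genes: Clock, Per1, Per2, Per3, Cry2 and Dbp. Over all tested genes control 1 was set apart in 2.95%, beside 0.771% to 1.85% for each of the other mice. No other mouse was set apart from its group in any of the 10. Relative to the mean of controls 2 to 4, Dbp in control 1 was 12.8 times as high, Per3 6.72 times and Per2 4.74 times, and Arntl was at 0.222 times. By its cell type markers the same mouse was inside the range of controls 2 to 4 for slow fibres (16630 CPM), fibroblasts (1475 CPM), endothelium (823.0 CPM) and adipocytes (163.4 CPM). It was below that range for fast fibres (20210 against 20280 to 22930 CPM), Schwann cells (154.5 against 160.8 to 174.0 CPM) and macrophages (61.8 against 63.3 to 114.2 CPM). For tendon markers it was above, at 110.9 against 70.1 to 95.2 CPM, and below the mutants' 199.9 to 251.1 CPM. Results are therefore given with all 8 mice and again without control 1. Control 1 was singled out by these very genes, so the fit without it describes the remaining 7 mice, as 1 of 8 fits that each leave out a mouse, and is no separate test of the genotype.

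As means over all 8 mice, the transcriptional activators Arntl and Clock were lower in the mutants, and only Arntl was called. Arntl (chromosome 7, 113207465 to 113314126, plus strand, GRCm38) encodes the bHLH-PAS protein without which the clock stops. It was at 11.3, 47.4, 48.1 and 56.6 CPM in controls 1 to 4 and at 18.2, 15.0, 20.3 and 18.1 CPM in mutants 1 to 4. Controls 2 to 4 lay well above every mutant, and control 1 lay below them all. With all 8 mice Arntl fell by 1.19 on the log2 scale (SE 0.367, adjusted p = 0.0217), and without control 1 it fell by 1.51 (SE 0.103, adjusted p = 1.58e-06). The call with control 1 present was narrow: the adjusted p was 0.054 without control 2, 0.0536 without control 3, 0.0545 without control 4, 0.0509 without mutant 1 and 0.0576 without mutant 2.

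Clock (chromosome 5, 76209868 to 76304792, minus strand), the partner of Arntl, varies little over the day in most tissues. It was measured at 48.7, 80.1, 83.3 and 78.5 CPM in the controls and at 59.8, 51.3, 48.8 and 53.8 CPM in the mutants. Control 1 was again at the mutants' level and the other 3 controls above it. The difference of -0.44 (log2, SE 0.147) had an adjusted p of 0.0304 but missed the threshold on fold change, while without control 1 Clock fell by 0.60 (SE 0.0754, adjusted p = 8.94e-05) and was called.

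**Figure D1:**
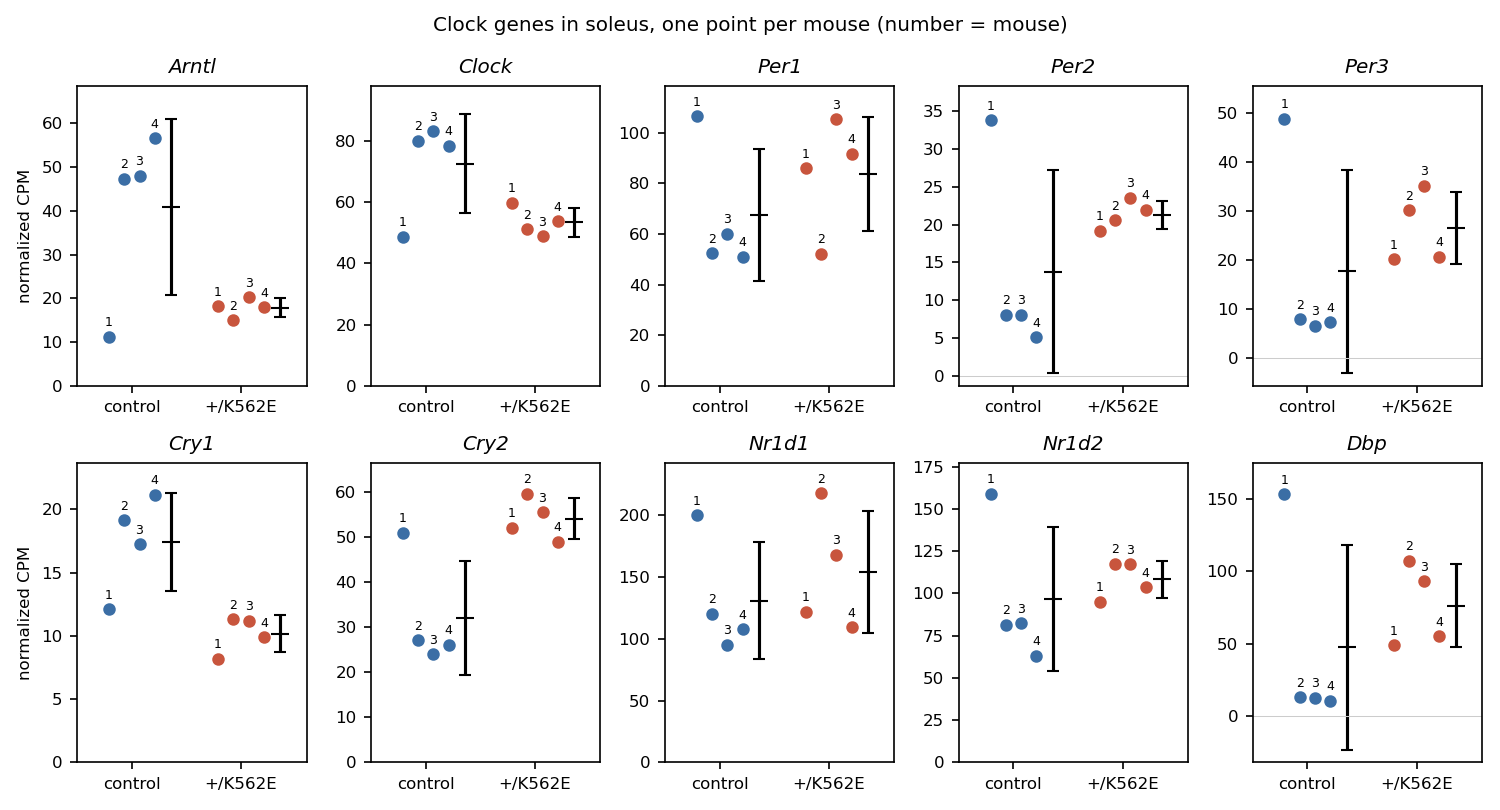
Level of each clock gene in every mouse, in CPM on a linear axis. Controls and Dnm2 +/K562E mice are separate columns of points, 1 point per mouse, each labelled with its mouse number. In all 10 panels control 1 lies on the mutants' side of controls 2 to 4, for example at 153.5 CPM of Dbp against 10.6 to 12.7 CPM.

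The Period genes encode the PAS-domain repressors of the negative arm. Per2 (chromosome 1, 91415982 to 91459324, minus strand) was at 33.8, 8.11, 8.11 and 5.15 CPM in the controls and at 19.2, 20.5, 23.5 and 21.9 CPM in the mutants. The mutants were tightly grouped, above controls 2 to 4 and below control 1. Across 8 mice the difference was 0.63 (log2, SE 0.470, adjusted p = 0.301), and without control 1 Per2 rose by 1.57 (SE 0.154, adjusted p = 1.63e-05).

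Per3 (chromosome 4, 151003652 to 151044665, minus strand), which is dispensable for rhythm in mice but cycles strongly in peripheral organs, stood at 48.8, 7.93, 6.58 and 7.30 CPM in the controls and 20.2, 30.2, 35.1 and 20.7 CPM in the mutants. The order was that of Per2, with control 1 highest, the mutants next and the other controls lowest. The difference was 0.60 (log2, SE 0.581, adjusted p = 0.432) with all mice, and 1.87 (SE 0.197, adjusted p = 2.66e-05) without control 1.

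Per1 (chromosome 11, 69095217 to 69109960, plus strand) also answers acutely to glucocorticoids and other stimuli. It was at 106.4, 52.4, 60.2 and 51.1 CPM in the controls and at 86.0, 52.3, 105.2 and 91.8 CPM in the mutants. Mutant 2 lay among controls 2 to 4, so the genotypes overlapped with or without control 1. The difference was 0.31 (log2, SE 0.253, adjusted p = 0.346), or 0.61 (SE 0.186, adjusted p = 0.0204) without control 1.

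The Cryptochromes, the flavoprotein-like repressors that bind the Period proteins, moved in opposite directions. Cry1 (chromosome 10, 85131700 to 85185064, minus strand) was at 12.1, 19.1, 17.2 and 21.2 CPM in the controls and at 8.20, 11.3, 11.2 and 9.92 CPM in the mutants. Every mutant lay below every control, control 1 being the lowest control. Cry1 fell by 0.77 on the log2 scale (SE 0.165, adjusted p = 0.00315) and by 0.92 (SE 0.122, adjusted p = 0.000132) without control 1. Among the 10 genes Cry1 was the one whose genotypes did not overlap with all 8 mice, a pattern that 41.2% of all tested genes showed in either direction.

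Cry2 (chromosome 2, 92403646 to 92434043, minus strand) was at 51.1, 27.1, 24.1 and 26.2 CPM in the controls and at 52.1, 59.7, 55.6 and 49.0 CPM in the mutants. Control 1 lay inside the mutants' range and the other controls at about the same low level as one another. Cry2 rose by 0.75 (log2, SE 0.207, adjusted p = 0.0124), and by 1.06 (SE 0.0832, adjusted p = 3.6e-06) without control 1. It stayed past both thresholds under all 18 alternative settings.

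Set against each other, the Cryptochromes separated the genotypes in all 8 mice. The ratio of Cry1 to Cry2 counts was 0.237 in control 1, 0.705, 0.716 and 0.809 in controls 2 to 4, and 0.157, 0.190, 0.202 and 0.202 in mutants 1 to 4. Control 1 was close to the mutants here, yet still above each of them. A ratio within a library does not depend on its scaling, and it was chosen after the single values had been seen, so it is a description without a test.

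The REV-ERB receptors, which carry haem and repress Arntl, had the smallest differences. Nr1d1 (chromosome 11, 98767932 to 98775333, minus strand) was at 200.1, 120.5, 95.2 and 108.0 CPM in the controls and at 122.0, 218.1, 168.3 and 109.6 CPM in the mutants, and the genotypes overlapped whether or not control 1 was counted. Its difference was 0.24 (log2, SE 0.253, adjusted p = 0.471), and 0.51 (SE 0.201, adjusted p = 0.0579) without control 1.

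Nr1d2 (chromosome 14, 18204054 to 18239127, minus strand) was at 159.0, 81.5, 82.4 and 63.2 CPM in the controls and at 95.0, 117.5, 117.1 and 103.5 CPM in the mutants. All 4 mutants lay between control 1 and the other controls. The difference was 0.17 (log2, SE 0.232, adjusted p = 0.592), and without control 1 it was 0.51 (SE 0.109, adjusted p = 0.00315), below the threshold on fold change. Of the windows of 31 bases in its transcripts, 9.51% also occur in those of another gene model (AC170187.1), so reads may be shared between both annotations.

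Dbp (chromosome 7, 45705088 to 45710203, plus strand) spanned the widest range of the 10 genes, with its highest mouse at 14.4 times its lowest. It was at 153.5, 12.7, 12.7 and 10.6 CPM in the controls and at 48.7, 107.3, 93.4 and 55.2 CPM in the mutants. The mutants again filled the gap between control 1 and controls 2 to 4. With 8 mice the difference of 0.69 (log2) was smaller than its SE of 0.777 (adjusted p = 0.501), and without control 1 Dbp rose by 2.66 (SE 0.265, adjusted p = 1.85e-05).

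Exons of Dbp and Sphk2, on opposite strands, share 539 bases (18.009% of the exonic length of Dbp), and whether counting used the strand is not stated. Sphk2, a sphingosine kinase gene, was at 15.0 CPM in control 1, 24.6 to 26.7 CPM in controls 2 to 4 and 12.1 to 17.6 CPM in the mutants, thus low where Dbp was high. Nr1d1 shares 263 exonic bases (8.55%) with Thra in the same way. Thra, the gene of thyroid hormone receptor alpha, was at 74.6 to 87.7 CPM in the controls and 51.8 to 65.0 CPM in the mutants.

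Counted over all 8 mice, 1 of the 10 clock genes was called higher in Dnm2 +/K562E muscle (Cry2), against 12.9% of all tested genes, and 2 were called lower (Arntl and Cry1), against 7.85%. In either direction the share of the clock genes called, 3 of 10, stands beside 20.7% of all tested genes, so the call rate with all mice is near that of the transcriptome. On adjusted p alone 1 gene was higher and 3 were lower, where 43.8% of all genes passed. The median log2 fold change was 0.28 for the 10 genes and 0.01 for all tested genes. Without control 1, 5 genes were called higher (Per1, Per2, Per3, Cry2 and Dbp), beside 13.6% of all genes, and 3 lower (Arntl, Clock and Cry1), beside 8.53%. Together these are 8 of 10 genes, where 22.1% of all genes were called. On adjusted p alone Nr1d2 joined the higher genes, giving 9 of 10 beside 45.1%. In those 7 mice 8 of the 10 genes did not overlap between genotypes, as did 48.9% of all tested genes.

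**Figure D2:**
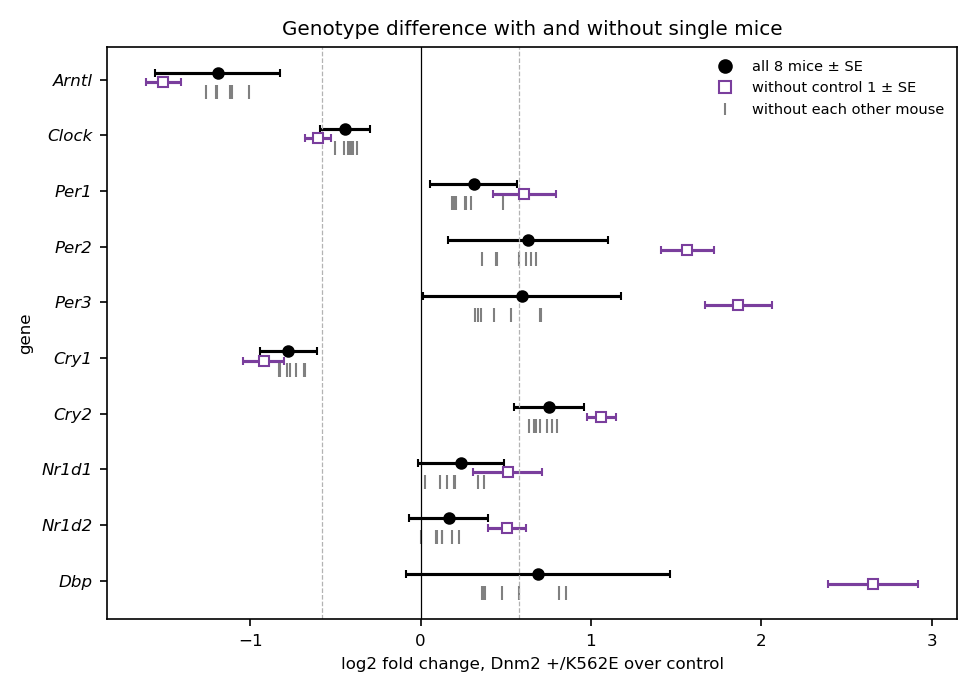
Log2 fold change of each clock gene, Dnm2 +/K562E over control, with bars of 1 SE, from the fit of all 8 mice and from the fit without control 1, with ticks for the fits without each other mouse and dashed lines at the fold threshold of 0.58. Leaving out control 1 moves every gene away from 0 and narrows the bars, most of all for Dbp, from 0.69 ± 0.777 to 2.66 ± 0.265.

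The spread inside the control group shows the same split. The coefficient of variation of Dbp over the controls was 149.3% with control 1 and 9.96% without it, beside 37.6% in the mutants. For Per3 the values were 117.7%, 9.26% and 27.7%, and for Arntl 49.4%, 10.2% and 12.3%. Controls 2 to 4 were thus as alike as, or more alike than, the mutants in these 3 genes, whereas Per2 varied by 24.0% in controls 2 to 4 and 8.80% in the mutants.

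In all 10 genes, control 1 and the mutant mean lay on the same side of controls 2 to 4, which held for 30.0% of all tested genes. In 8 of the 10 the mutant mean lay between control 1 and those controls, a pattern of 9.86% of all genes. The exceptions were the Cryptochromes, in which the mutant mean lay beyond control 1. Control 1 was above the other controls in the 7 genes Per1, Per2, Per3, Cry2, Nr1d1, Nr1d2 and Dbp (30.1% of all genes), and below them in Arntl, Clock and Cry1 (28.2%). These genes are not independent of one another, since they regulate each other and were read from the same libraries.

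Arntl and Dbp, which peak at opposite times, were also set against each other. The ratio of Arntl to Dbp counts was 0.0734 in control 1, 3.72, 3.80 and 5.33 in controls 2 to 4, and 0.373, 0.14, 0.218 and 0.327 in mutants 1 to 4. Control 1 and all 4 mutants were below 1, and controls 2 to 4 were above it. The ratio of Arntl to its partner Clock showed the same division with a smaller span, 0.231 in control 1, 0.577 to 0.722 in controls 2 to 4 and 0.292 to 0.417 in the mutants.

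**Figure D3:**
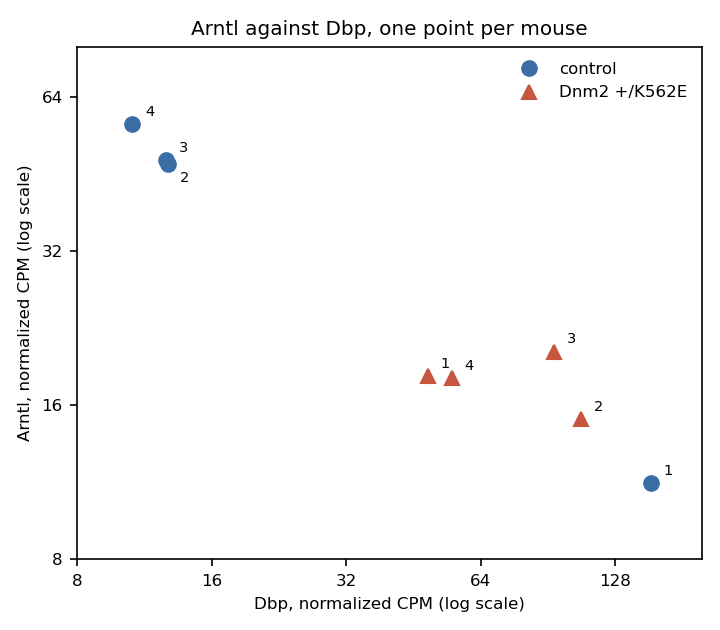
Arntl against Dbp in the 8 mice, both in CPM on log axes, with 1 point per mouse coloured by genotype and labelled. Controls 2 to 4 sit together at high Arntl and low Dbp, and control 1 sits at the opposite corner (11.3 and 153.5 CPM). The mutants lie between, nearer to control 1 than to controls 2 to 4 on both log axes.

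Within the mutant group, mice 2 and 3 differed from mice 1 and 4. Dbp was at 107.3 and 93.4 CPM in mutants 2 and 3 and at 48.7 and 55.2 CPM in mutants 1 and 4. Per3, Nr1d1, Nr1d2, Cry1 and Cry2 were also higher in both of mutants 2 and 3, with 30.2 and 35.1 CPM of Per3 against 20.2 and 20.7 CPM, and Clock was lower, while Arntl, Per1 and Per2 did not divide the mutants in that way. The division was seen in the values themselves and was not tested. The same pairs stood apart in Nfil3, a bZIP repressor that competes with Dbp for D-boxes, with 12.5 and 11.5 CPM in mutants 2 and 3 and 26.5 and 28.6 CPM in mutants 1 and 4.

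The promoters of these genes carry the short elements through which the loops are wired, and a few are shown so that the members of each arm can be seen side by side. RefSeq start windows (250 bases before to 50 bases after the start, GRCm38.p6) were found for 9 of the 10 genes, in 13 windows. On both strands they were searched for the E-box CACGTG, the noncanonical E-box CACGTT (read AACGTG on the other strand), the D-boxes TTATGTAA and TTACGTAA, the ROR element core TAGGTCA and the cAMP response element TGACGTCA. Capitals mark the matches, and each line reads 5′ to 3′ on the strand of the gene. The E-box and noncanonical E-box matches of genes in the repressor arm were:
Cry1 (chr10:85185091-85185151, minus strand): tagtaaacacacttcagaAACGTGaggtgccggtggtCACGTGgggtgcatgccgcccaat
Cry2 (chr2:92434212-92434253, minus strand): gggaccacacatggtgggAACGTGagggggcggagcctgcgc
Per1 (chr11:69098765-69098806, plus strand): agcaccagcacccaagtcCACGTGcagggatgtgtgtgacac
Nr1d1 (chr11:98775382-98775423, minus strand): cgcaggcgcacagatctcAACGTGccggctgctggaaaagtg

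The window of Per3 held 2 copies of a D-box, the element read by Dbp, Tef and Hlf and by their competitor Nfil3, and it was the only one of the 13 windows with either D-box sequence:
Per3 (chr4:151044798-151044888, minus strand): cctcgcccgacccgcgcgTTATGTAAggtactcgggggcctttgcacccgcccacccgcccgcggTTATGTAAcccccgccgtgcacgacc
One of the windows of Arntl held a ROR element core, the sequence for which REV-ERB and ROR receptors compete, between bases 19 and 47 after the start:
Arntl (chr7:113207530-113207558, plus strand): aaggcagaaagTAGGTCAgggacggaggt

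Across the 32851 windows of all genes, the E-box occurred in 7.15%, beside 2 of the 13 windows of the 9 clock genes. The noncanonical E-box occurred in 4.69% of all windows and in 3 of the 13, the D-box in 1.06% and in 1, and the ROR core in 2.61% and in 1. For each element the matching clock windows belonged to different genes. The cAMP response element occurred in 1.79% of all windows and in none of the 13. A match is a description of the letters in a window and says nothing of binding in these muscles. Cry1 and Cry2, which moved in opposite directions, both hold the noncanonical E-box.

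The 10 genes belong to a larger clock network, of which 21 more genes were listed and 20 passed the filter (Rorb did not). With all 8 mice none was called higher, beside 12.9% of all tested genes, and 2 were called lower, Npas2 and Usp2, beside 7.85%. At an unadjusted p below 0.05, 0 of the 20 were higher and 6 lower in the edgeR quasi-likelihood test, as were 3573 of all 14001 genes in the lower direction. The edgeR exact test called 0 higher and 3 lower, and DESeq2 called 0 higher and 1 lower. Without control 1, 5 were called higher (13.6% of all genes) and 2 lower (8.53%). The counts of lower genes are near those of the transcriptome.

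Npas2, a paralog of Clock that also pairs with Arntl, was likewise high in controls 2 to 4 and low in the other mice. It was at 1.19, 6.80, 7.39 and 11.3 CPM in the controls and at 2.96, 2.74, 1.93 and 2.68 CPM in the mutants, with control 1 below every mutant. It fell by 1.38 (log2, adjusted p = 0.0366, edgeR quasi-likelihood), and by 1.73 (adjusted p = 6.29e-05) without control 1. Its call was lost when any mouse other than control 1 was left out, with adjusted p from 0.0656 to 0.105.

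Rora, whose product is a receptor that activates Arntl, differed by -0.01 on the log2 scale (adjusted p = 0.9), and the Arntl paralog Arntl2 by 0.32 (adjusted p = 0.366).

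The output and feedback factors of the PAR-bZIP and bHLH families repeated the picture of Dbp. With all 8 mice none of the 6 was called, beside 12.9% of all tested genes called higher and 7.85% lower. At an unadjusted p below 0.05 in the edgeR quasi-likelihood test, 0 were higher and 1 lower. Of all 14001 genes 3678 were higher and 3573 lower at that level. The edgeR exact test called 0 higher and 1 lower, and DESeq2 called 0 and 0. Tef, a relative of Dbp, was at 281.2, 103.4, 101.3 and 92.0 CPM in the controls and 150.8, 197.1, 202.7 and 157.4 CPM in the mutants, so that the mutants again lay between. Its log2 difference was 0.29 (adjusted p = 0.482) with control 1 and 0.83 (adjusted p = 0.000134) without.

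Ciart, a repressor of the Arntl and Clock heterodimer also called Chrono, was at 11.3, 1.16, 0.828 and 0.736 CPM in the controls and at 4.51, 6.67, 8.04 and 4.65 CPM in the mutants. Its log2 difference was 0.78 (adjusted p = 0.419), or 2.71 (adjusted p = 2.02e-05) without control 1, the largest among the 10 genes and the other clock genes in that fit. Hlf, Bhlhe40 and Bhlhe41 were likewise higher in control 1 and in every mutant than in controls 2 to 4, with log2 differences of 0.70, 0.64 and 0.80 (adjusted p = 0.207, 0.13 and 0.143) that became 1.39, 1.14 and 1.57 (adjusted p = 0.00101, 0.000418 and 2.01e-05).

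Nfil3 was the member of these families that went the other way. It was at 9.65, 58.6, 60.4 and 57.8 CPM in the controls and at 26.5, 12.5, 11.5 and 28.6 CPM in the mutants. Its log2 difference was -1.24 (adjusted p = 0.0591), and -1.59 (adjusted p = 0.000742) without control 1. The ratio of Nfil3 to Dbp counts, a repressor and an activator at the same element, ran from 4.6 to 5.43 in controls 2 to 4, from 0.116 to 0.543 in the mutants and was 0.0629 in control 1.

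**Figure D4:**
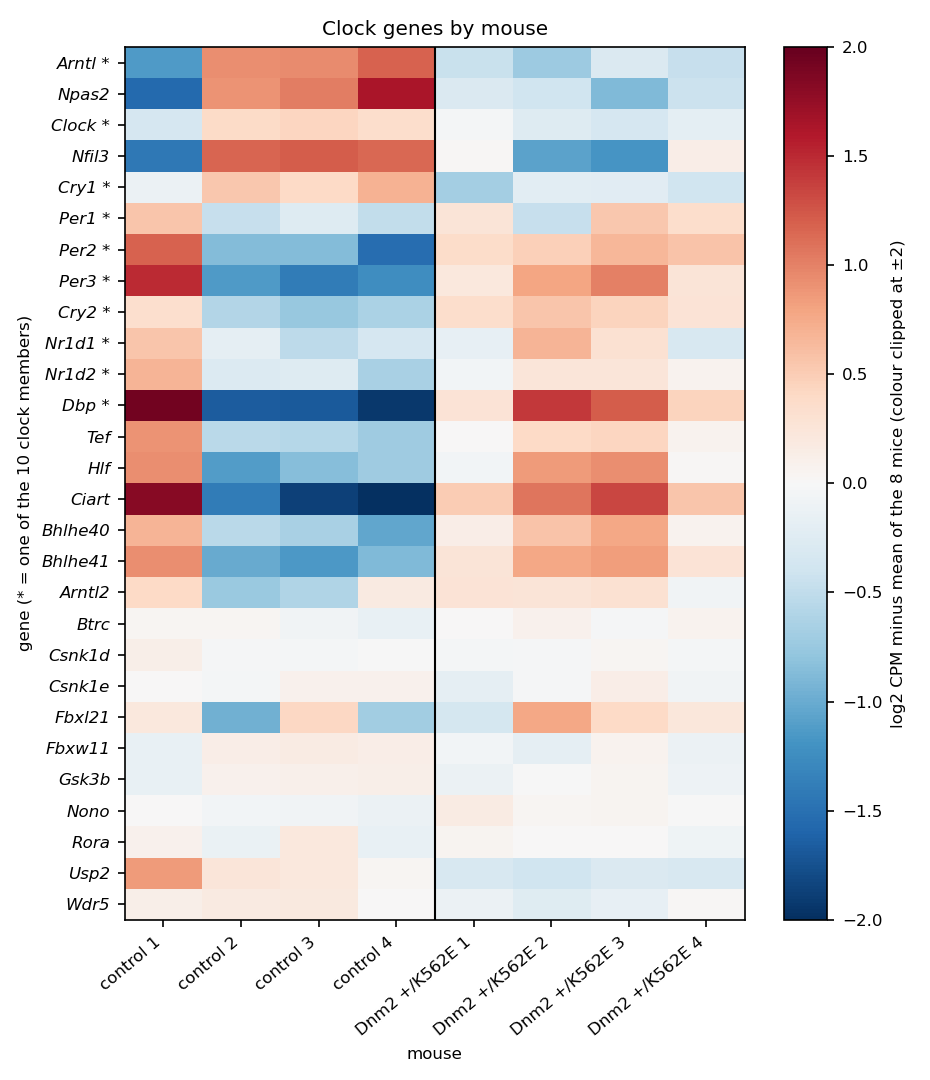
Log2 CPM of the 10 clock genes and of other clock-network genes in each mouse, as the deviation from the gene's mean over the 8 mice, drawn as a colour scale with genes in rows and mice in columns. In the rows of the 10 clock genes (starred) the column of control 1 has the opposite colours to those of controls 2 to 4, for example -1.14 for Arntl against 0.93 to 1.19, and most mutant values share its direction, with 1 mutant each of Per1 and Nr1d2 and 2 of Nr1d1 on the other side of 0. Below these rows, Usp2 is high in control 1 and low in the mutants.

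The kinases, ubiquitin ligases and other regulators that set the stability of clock proteins were steadier. Of 10 listed, Usp2 alone was called with all 8 mice, as lower, beside 12.9% of all tested genes called higher and 7.85% lower. Usp2, a deubiquitinase that acts on clock proteins, was at 243.3, 159.8, 157.0 and 138.9 CPM in the controls and at 108.6, 102.5, 110.7 and 108.4 CPM in the mutants. Here control 1 was the highest mouse and the mutants the lowest, unlike in the 10 genes above. Usp2 fell by 0.70 (log2, adjusted p = 0.0027), and without control 1 the difference was -0.51 (adjusted p = 0.000141), short of the fold threshold. Wdr5, a subunit of histone methyltransferase complexes that also binds Period proteins, differed by -0.25 (adjusted p = 0.0243), short of the fold threshold. The kinase genes Csnk1d and Csnk1e differed by -0.03 and -0.07 on the log2 scale.

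Among 6 genes described as clock outputs in muscle, Nampt separated the genotypes most clearly. Nampt, the rate-limiting enzyme of NAD+ salvage, was at 213.1, 209.7, 188.0 and 201.2 CPM in the controls and at 113.1, 105.1, 102.6 and 116.0 CPM in the mutants. Control 1 was with the other controls, and the groups were far apart. Nampt fell by 0.90 (log2, adjusted p = 2.58e-06), and by 0.88 (adjusted p = 2.81e-06) without control 1.

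Wee1, the kinase that holds cells before mitosis, rose by 0.98 (log2, adjusted p = 0.0112), with mutant 2 at 4.44 CPM inside the controls' range of 3.97 to 5.33 CPM. Tcap, a sarcomere protein gene, had a log2 difference of -0.41 (adjusted p = 0.0454), which became -0.25 (adjusted p = 0.0916) without control 1. Cdkn1a, a cell cycle inhibitor, had one of -0.61 (adjusted p = 0.105), which became -0.87 (adjusted p = 0.000212) without control 1. Pdk4 and Myod1 differed by 0.18 (adjusted p = 0.593) and -0.35 (adjusted p = 0.116).

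Genes that answer to signals able to reset a peripheral clock were read as well. Of 6 glucocorticoid-induced genes 2 were called higher and 1 lower, beside 12.9% and 7.85% of all tested genes. The metallothionein gene Mt2 rose by 1.65 (log2, adjusted p = 2.2e-05) and Tsc22d3 by 0.62 (adjusted p = 0.0316, and 0.0522 without control 1, 0.0934 without mutant 1, 0.0955 without mutant 4, 0.09 without control 2 and 0.0578 without control 4). Zbtb16 fell by 0.93 (adjusted p = 4.06e-05), from 93.8 to 135.9 CPM in the controls to 56.2 to 64.9 CPM in the mutants. Klf9 differed by -0.36 (adjusted p = 0.0237), while Fkbp5 at -0.29 and Sgk1 at -0.38 did not pass the test.

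Of 6 immediate-early genes 2 were called higher, beside 12.9% of all genes, Fos by 1.17 (log2, adjusted p = 0.0125) and Junb by 1.28 (adjusted p = 0.00982). Without control 1 the number called was 4, beside 13.6% of all genes. Egr1 was at 78.5, 11.4, 11.2 and 20.5 CPM in the controls and at 31.9, 65.6, 81.1 and 23.3 CPM in the mutants. Egr1 was thus high in control 1 and in mutants 2 and 3, the same mice that were high in Dbp. Junb and Ier2 were also higher in mutants 2 and 3 than in mutants 1 and 4. Fosb and Atf3 did not divide the mutants in that way. Fos went the other way, at 29.8 and 31.1 CPM in mutants 1 and 4 and 11.1 and 15.6 CPM in mutants 2 and 3. These divisions were not tested. Of 6 temperature-responsive genes, Hsph1 rose by 0.59 (adjusted p = 0.0195, 0.0376 and below the fold threshold without control 1, 0.0626 without mutant 1 and 0.0598 without mutant 4), and Rbm3 differed by 0.42 (adjusted p = 0.00521), short of the fold threshold.

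Compared per kilobase of exon, the most abundant of the 10 transcripts was Nr1d1, with a median over the 8 mice of 39.4 CPM per kb and a range from 30.9 to 70.9. Nr1d2 followed at 18.4, Dbp at 17.4, Per1 at 13.0 and Cry2 at 7.92 CPM per kb. Clock was at 4.14, Cry1 at 3.504, Per2 at 3.39, Arntl at 2.56 and Per3 at 2.13 CPM per kb. These medians pool both genotypes. The mean of Arntl was 5.43 CPM per kb in controls, beside 5.29 for Clock and 5.21 for Cry1, and 2.38 in mutants. Apart from Nr1d1 and Nr1d2, the ranges over mice of each pair of neighbours in this order overlapped, so their order is not settled by these 8 mice.

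The genes whose levels varied most like those of Arntl and Dbp were found from log2 CPM deviations from each genotype's mean over 12634 genes in the 8 mice. For Arntl they included Prkca (Pearson r = 0.994), Eif5a (0.988), Chd7 (0.986) and Rcan1 (0.986). For Dbp they were its relative Tef (0.997), Dmac2 (0.997), Tacc2 (0.993), Stard3 (0.989) and Sp1 (0.988). These values describe 8 points from 8 libraries and are dominated by control 1. Without that mouse the 5 genes most like Arntl were all others, and of the 5 for Dbp only Dmac2 (0.999) was again among them.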

How the data were processed

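RNA-seq was done on soleus muscle of 4 control and 4 Dnm2 +/K562E mice. The authors trimmed reads (Trimmomatic 0.33), aligned them to GRCm38.p5 (STAR 2.5.1b) and deposited raw counts per gene from featureCounts, with reads that overlap several genes counted for each and multi-mapping reads at their primary alignment. The sources used here name different library kits and do not state the strand setting. Replicates are separate animals by title number.

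From these counts, genes were filtered (filterByExpr, minimum count 10, total 15), scaled by TMM and tested with the quasi-likelihood F-test of edgeR 4.0.16 in R 4.3.3 with Benjamini-Hochberg adjustment over 14001 genes, with genotype as the only term. In place of the study's exact test this test was the main one. A prior count of 2 was used for log2 CPM values, as in the deviations, correlations and surrogate variable, and not for the fold changes. Coordinates and exon lengths come from GENCODE M21 (22647 of 22880 IDs matched). The code was tested on simulated data: 97.5% of 200 genes changed by 1.5 (log2) were recovered in the 13879 genes tested, with 7 unchanged genes among the 202 calls. Alternatives were DESeq2 1.42.0, the exact test, other scalings and filters, a surrogate variable (sva 3.50.0), number blocks and leaving out each mouse.

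The clock genes and lists were chosen with earlier results of these data known. All 10 clock genes are named. From the other lists, called genes (up to 4 a list) and every gene of lists of at most 6 could be named. Other genes named, and the ratios, were chosen after their values were seen. A few genes of the lists are not reported here by name.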

Additional observations from a re-analysis of the deposited data

Results flagged for a closer look

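Each of 30 clock genes was checked in each genotype for a mouse set apart from the other 3, meaning a gap to the nearest mouse that exceeds Dixon's 95% critical share of the group's range for 4 samples. Chance flags about 1 in 20 groups. Of 60 groups, 14 were flagged, and 13 of these were control 1. The genes regulate one another, so the flags are not independent.

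In control 1 Dbp stood at 153.5, Per1 at 106.4, Cry2 at 51.05, Per3 at 48.82, Clock at 48.73 and Per2 at 33.78 CPM. Of the output and feedback factors, Tef stood at 281.2, Bhlhe41 at 36.16, Hlf at 21.21, Ciart at 11.32 and Nfil3 at 9.65 CPM. Clock and Nfil3 were below the other controls and the rest of these above. Fbxw11, a ubiquitin ligase subunit gene, stood at 51.44 CPM and the kinase gene Gsk3b at 79.7 CPM in control 1. The remaining flag was Arntl2 in mutant 4, at 1.729 CPM, the lowest of the mutants and inside the controls' range of 1.07 to 2.41 CPM.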

How the results depend on the processing

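Of 179 values of the 10 clock genes under alternative settings, none reversed, 166 kept their side of the thresholds, 7 lost a call and 6 gained one. Leaving out 1 mouse at a time gave 1 to 5 clock genes called higher (5 without control 1) and 1 to 3 called lower, and for the other clock genes 0 to 5 higher and 1 to 2 lower. Scaling by library size alone, which moved the median of all genes to 0.22 (log2), left 1 clock gene called lower, as Cry1 at -0.57 missed the fold threshold, and called 1 other clock gene higher and 0 lower, and 2865 genes higher and 564 lower over all genes instead of 1806 and 1099. Without a fold threshold 3103 genes were higher and 3036 lower, and 5 other clock genes lower. DESeq2 called 1 other clock gene lower and gave no p for Per2. With 1 surrogate variable 4 other clock genes were higher. The title numbers and the description numbers pair mice differently, and neither pairs them by the data: deviations of same-numbered mice correlated from -0.21 to 0.01 by title and from -0.17 to 0.18 by description. With title numbers as a replicate block 1 clock gene was called lower (Arntl lost its call at -1.02, adjusted p = 0.0669, edgeR) and 1 other clock gene lower. With description numbers as a block 2 clock genes were called higher (Dbp joined, at 1.69, adjusted p = 0.0284) and 3 other clock genes higher. The cause of these changes was not tested. With 4 mice a group and 1 of them apart, the SE of Dbp exceeded its difference.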
